A study of Sus scrofa with 21 samples.

Results

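The genes described here carry glucose, galactose and fructose across the intestinal epithelium and start their breakdown. They are SLC5A1, SLC2A2, SLC2A5, KHK, TKFC, MLXIPL, TXNIP, GALT and GALK1, picked by gene name, and all 9 were found among the 18661 pig genes in the files. Each name matched 1 gene identifier. RNA was sequenced from 21 piglets of the breed Danish Landrace/Yorkshire, aged 24 to 25 days, and the tissue was the distal small intestine. The starch group (n = 11, sample titles "Treatment") received a milk replacer with wheat added as the starch source, and the control group (n = 10) received the replacer alone. Both diets thus shared the replacer. Sex, litter, the amount of wheat and the time of the last meal are not given in the labels used here. Whole intestinal tissue was used, so each value mixes epithelium, muscle, connective tissue and immune cells.

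SLC5A1 (the protein SGLT1) draws glucose and galactose into the enterocyte together with sodium, at the brush border that faces the gut lumen. SLC2A5 (GLUT5) admits fructose on the same side, and SLC2A2 (GLUT2) lets sugars leave towards the blood. KHK, ketohexokinase, phosphorylates fructose, and TKFC, triokinase, phosphorylates the glyceraldehyde set free later in the pathway. GALK1 and GALT, galactokinase and galactose-1-phosphate uridylyltransferase, handle galactose, which milk lactose supplies. MLXIPL encodes ChREBP, a transcription factor that responds to sugar metabolites, and in mouse and human cells TXNIP, an arrestin-like protein, is one of its targets. Starch itself is digested to glucose and holds no fructose or galactose.

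Expected counts, which are the authors' estimates of reads per transcript, were summed per gene. They came to between 6719264 and 8610458 per piglet. CPM below are counts scaled to a common library size by TMM. After a filter on low counts 13127 genes were tested, all 9 of these genes among them. The 3 piglets starch 3, control 5 and control 8 stood apart from the other 18 on component 1 of the most variable genes, which held 64% of their variance. The summed level of the 9 matched villus enterocyte markers was 257.5 to 344.8 CPM in these 3 piglets, against 8191 to 43680 CPM in the other 18. That of the 7 ileal enterocyte markers was 19.6 to 67.6 CPM, against 807.7 to 6592 CPM. FGF19 and AMN were at 0 in at least 1 piglet, and FABP6, the ileal bile acid binding protein, read 0.348, 14.9 and 40.3 CPM in starch 3, control 5 and control 8, against 233.9 to 5298 CPM in the rest. The summed level of the 10 matched pan-epithelial markers did not separate the 3 piglets, at 4837 to 7761 CPM against 3736 to 8385 CPM. Single markers of that list differed. VIL1 read 171.3, 161.9 and 180.8 CPM in starch 3, control 5 and control 8, against 724.0 to 1728 CPM in the 18. CDH17 read 424.4, 560.3 and 644.1 CPM against 469.2 to 1238 CPM, and KRT8 3023, 2006 and 4002 CPM against 1047 to 3312 CPM. The 9 smooth muscle markers summed to 21980 to 38570 CPM in the 3 piglets and 6425 to 22170 CPM in the rest, and the 5 goblet cell markers to 1617 to 3686 CPM and 424.2 to 1620 CPM. The 6 fibroblast markers lay at 7970 to 9780 CPM and 4144 to 11010 CPM. The 6 T cell markers gave 91.1 to 214.7 CPM and 40.0 to 283.9 CPM, and the 7 B cell markers 23.0 to 42.2 CPM and 8.90 to 627.2 CPM, with MS4A1 and PAX5 at 0 in at least 1 piglet. The 4 crypt markers read 2026 to 3270 CPM and 877.5 to 3804 CPM, with ASCL2 at 0 in at least 1 piglet, and the 5 enteroendocrine markers 155.8 to 291.1 CPM and 203.0 to 922.7 CPM. The labelled tissue therefore showed its ileal markers in 18 piglets and little of them in 3, and results are given with and without those 3. In bulk RNA, fewer cells of a type and less RNA per cell cannot be told apart.

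Levels between genes were compared on the FPKM scale, which is corrected for transcript length. TXNIP was the most abundant, with a mean level of 223.6 ± 62.2 FPKM in starch and 224.9 ± 70.2 FPKM in control piglets (SD, n = 11 and 10). SLC5A1 followed at 168.6 ± 104.5 FPKM in starch and 146.1 ± 97.0 FPKM in control piglets. These were above 97.2% and 96.0% of all listed genes. A middle group held KHK, GALT, TKFC and GALK1, with mean levels over the 21 piglets of 71.5, 66.6, 58.9 and 51.0 FPKM. MLXIPL (21.3 FPKM), SLC2A5 (21.2 FPKM) and SLC2A2 (17.3 FPKM) were lowest. The mean level of SLC5A1 was thus above that of SLC2A5, a pair that was not tested here, but in starch 3, control 5 and control 8 the order was the other way round (9.25, 23.25 and 11.2 FPKM for SLC5A1, 53.6, 58.4 and 24.3 FPKM for SLC2A5). Of the 8 neighbouring pairs in this order, 3 passed a test of the difference within piglets. These were TXNIP above SLC5A1 (mean log2 FPKM difference 0.91, higher in 13 of 21 piglets, adjusted p = 0.0201), SLC5A1 above KHK (1.01, 19 of 21, adjusted p = 0.00012) and GALK1 above MLXIPL (1.48, 20 of 21, adjusted p = 8e-05), in two-sided sign-flip permutation tests adjusted over 8 pairs. Without the 3 piglets TXNIP and SLC5A1 no longer passed (0.36, higher in 10 of 18, adjusted p = 0.0954), and TKFC lay above GALK1 (0.30, 13 of 18, adjusted p = 0.0451). Without them SLC2A2 came before SLC2A5, a pair that did not pass in either set.

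Among the carriers, SLC5A1 had levels of 16.9, 312.0 and 790.1 CPM in starch piglets (lowest, median, highest) and of 21.5, 266.2 and 617.3 CPM in control piglets. Its highest values were those of starch 7 and control 2, its lowest those of starch 3, control 8 and control 5, and the diets overlapped over nearly the whole range. SLC2A2 read 0.927, 23.5 and 66.0 CPM in starch and 1.03, 21.6 and 45.5 CPM in control piglets. Starch 5 was highest, and starch 3 and control 8 held only 8 expected counts each, so their values carry a large counting error. SLC2A5 read 12.3, 20.5 and 73.1 CPM in starch and 12.9, 27.1 and 67.7 CPM in control piglets. Here starch 3 was the highest of the starch group and control 5 the highest of the control group, the reverse of their place for the glucose carriers.

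**Figure D1:**
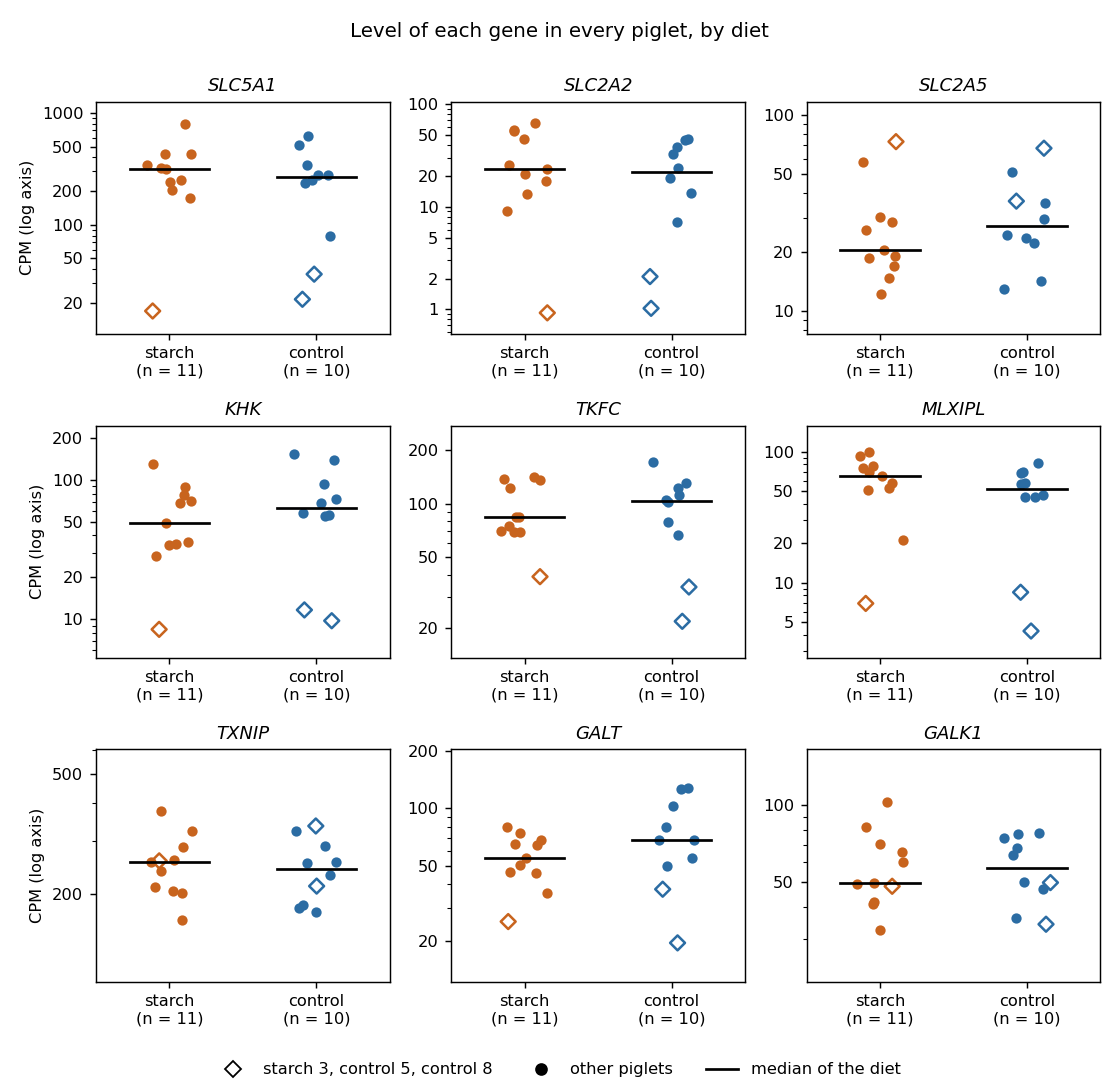
CPM of each gene on a log axis (y) in starch piglets (left, n = 11) and control piglets (right, n = 10). Each point is a piglet, diamonds mark starch 3, control 5 and control 8, and bars are diet medians. The diets overlap for every gene, and the diamonds are the lowest values for SLC5A1, SLC2A2, KHK, TKFC and MLXIPL but include the highest for SLC2A5.

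In the fructose pathway, KHK read 8.46, 49.0 and 129.9 CPM in starch piglets and 9.76, 63.4 and 154.1 CPM in control piglets (lowest, median, highest). The highest starch value was that of starch 8 and the highest control values those of control 2 and control 6. TKFC read 39.0, 84.2 and 141.2 CPM in starch and 21.9, 103.8 and 170.8 CPM in control piglets. It was steadier, with a coefficient of variation of 41.4% over the 21 piglets against 63.3% for KHK. Without starch 3, control 5 and control 8 these were 29.9% and 49.9%.

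KHK was listed with 2 transcripts, of 897 and 1032 coding bases, and their balance differed between piglets. The shorter transcript took 0, 78.9 and 84.5% of the gene's counts in starch piglets (lowest, median, highest) and 19.99, 77.1 and 84.3% in control piglets. The low shares were those of starch 3, in which the shorter transcript was not listed, of control 5 (19.99%) and of control 8 (33.2%), while the other 18 piglets lay between 59.5 and 84.5%. Starch 4 (59.5%) and starch 11 (64.1%) came next. In expected counts scaled to the library total (CPM without TMM), the shorter transcript was listed at 2.43 in control 5 and 3.76 in control 8, against 15.8 to 118.0 in the 18 piglets. The longer transcript stood at 8.95 in starch 3, 9.73 in control 5 and 7.57 in control 8, and at 7.43 to 22.6 in the 18. The low KHK levels of the 3 piglets were thus chiefly low values of the shorter transcript, whose median in the 18 was 52.6. The longer one lay inside the range of the 18 but below their median of 14.0. The split rests on the authors' division of reads that fit both transcripts and, in starch 3, on 73.0 expected counts. Human and rodent KHK make 2 enzyme forms by choice of an exon, but the files do not say which form, if any, either pig transcript encodes. The balance of the 897- and 1032-base transcripts therefore cannot be read as a balance of those forms.

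**Figure D2:**
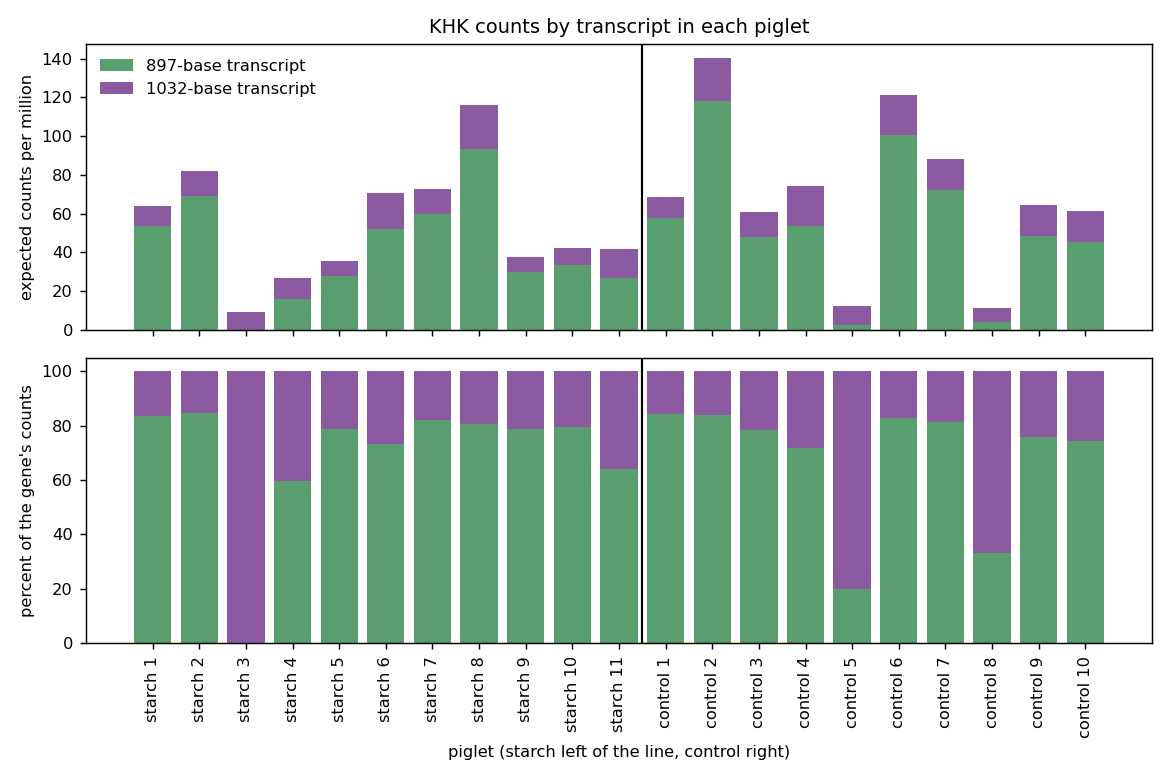
KHK expected counts as CPM without TMM scaling (top, y) and percent of the gene's counts (bottom, y) for the 897-base and 1032-base transcripts in each piglet (x), starch left of the line and control right. Starch 3, control 5 and control 8 hold 0, 19.99 and 33.2% in the shorter transcript, and the other 18 piglets 59.5 to 84.5%.

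TKFC had 3 transcripts. The longest, of 1737 bases, took 63.0 ± 11.9% of the gene's counts in starch piglets and 49.8 ± 9.33% in control piglets (SD, n = 11 and 10). This difference of 13.2 percentage points had a two-sided permutation p of 0.0117 and did not pass after adjustment over the 6 transcript shares compared (adjusted p = 0.06996). The comparison was added after the shares had been seen. Without starch 11 the difference was 15.6 points and passed (permutation p = 0.00144, adjusted p = 0.00864). This was the only 1 of 22 alternative settings in which the difference passed. Without starch 3, control 5 and control 8 it was 9.34 points (permutation p = 0.0618, adjusted p = 0.371). The share of the shorter KHK transcript did not pass the test between the diets (69.5 ± 24.4% in starch and 68.6 ± 22.8% in control piglets, adjusted p = 0.943), nor did that of the main SLC5A1 transcript of 1989 bases (94.9 ± 7.48% and 89.4 ± 11.2%, adjusted p = 0.446).

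Of the regulators, MLXIPL read 6.96, 64.8 and 99.0 CPM in starch piglets and 4.28, 51.8 and 81.9 CPM in control piglets (lowest, median, highest). Starch 6 was highest, and starch 4, at 21.1 CPM, was the lowest of the 18 piglets. TXNIP read 164.2, 254.8 and 376.5 CPM in starch and 174.0, 242.8 and 336.3 CPM in control piglets. It had the smallest spread of the 9 genes, with a 2.29-fold range over all piglets, and the 3 piglets that stood apart were not low in it (257.8 CPM in starch 3, 336.3 in control 5 and 212.7 in control 8). MLXIPL was divided among 3 transcripts, of which 2 had identical counts and could not be told apart in the files.

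For galactose, GALT read 25.4, 54.5 and 80.2 CPM in starch piglets and 19.6, 67.9 and 127.3 CPM in control piglets (lowest, median, highest). Control 2 (127.3 CPM), control 6 (125.6 CPM) and control 7 (102.9 CPM) lay above every starch piglet, and the other 7 control piglets lay inside or below the starch range. Its 2 transcripts had identical counts in the files. GALK1 read 32.5, 49.6 and 103.4 CPM in starch and 34.2, 56.8 and 78.2 CPM in control piglets, with starch 5 and starch 1 highest. GALK1 was among the steadier genes, with a range of 3.18-fold over the 21 piglets.

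The design asked how starch in the milk replacer alters gene expression in the intestine. None of these genes passed. With edgeR and Benjamini-Hochberg adjustment over 13127 genes, 0 of the 9 genes were called at 0.05, against 0% of all tested genes. Before adjustment 0 of the 9 were under 0.05, against 1.33% of all (174 genes). DESeq2 likewise called 0 genes, with 293 at an unadjusted p under 0.05, and voom 0, with 268. The fold changes given next are log2, starch minus control. SLC2A2 had 0.42 (95% confidence interval -0.76 to 1.59), MLXIPL 0.33 (-0.53 to 1.18) and SLC5A1 0.26 (-0.78 to 1.30). The values were 0.05 for TXNIP (-0.27 to 0.37), 0.02 for GALK1 (-0.39 to 0.42), -0.01 for TKFC (-0.61 to 0.58) and -0.14 for SLC2A5 (-0.81 to 0.54). KHK had -0.34 (-1.23 to 0.54) and GALT -0.40 (-0.94 to 0.14, unadjusted p = 0.138, adjusted p = 0.9998). The median over the 9 genes was 0.02 and that over all tested genes 0.00388. The intervals of SLC5A1, SLC2A2 and MLXIPL include a log2 fold change of 1 but not of -1, that of KHK includes -1 but not 1, and those of the other 5 genes include neither. With the smooth muscle marker score added to the fit KHK had 0.03 (unadjusted p = 0.954, edgeR), so its direction turned.

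Without starch 3, control 5 and control 8 the intervals narrowed for 7 of the 9 genes and were wider for TXNIP (-0.25 to 0.45) and GALK1 (-0.49 to 0.39). The values were 0.11 for SLC5A1 (-0.56 to 0.77), 0.25 for SLC2A2 (-0.55 to 1.06), 0.17 for MLXIPL (-0.27 to 0.61) and -0.50 for KHK (-1.11 to 0.10). GALT then read 58.5 ± 14.2 CPM in 10 starch piglets and 84.5 ± 30.5 CPM in 8 control piglets (SD). Its log2 fold change was -0.53 (95% interval -0.93 to -0.12) with an unadjusted p of 0.0133 and an adjusted p of 0.9999 in the edgeR test. In that fit 1 of 9 members had an unadjusted p under 0.05, against 2.91% of 13139 genes, and 0 passed the adjusted threshold. Without control 5 alone GALT had -0.51 (unadjusted p = 0.0326, adjusted p = 0.9997, edgeR). These 2 GALT values were the only unadjusted p under 0.05 among 315 member results in the alternative fits. In the other alternative fits the unadjusted p of GALT was above 0.05, up to 0.34.

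**Figure D3:**
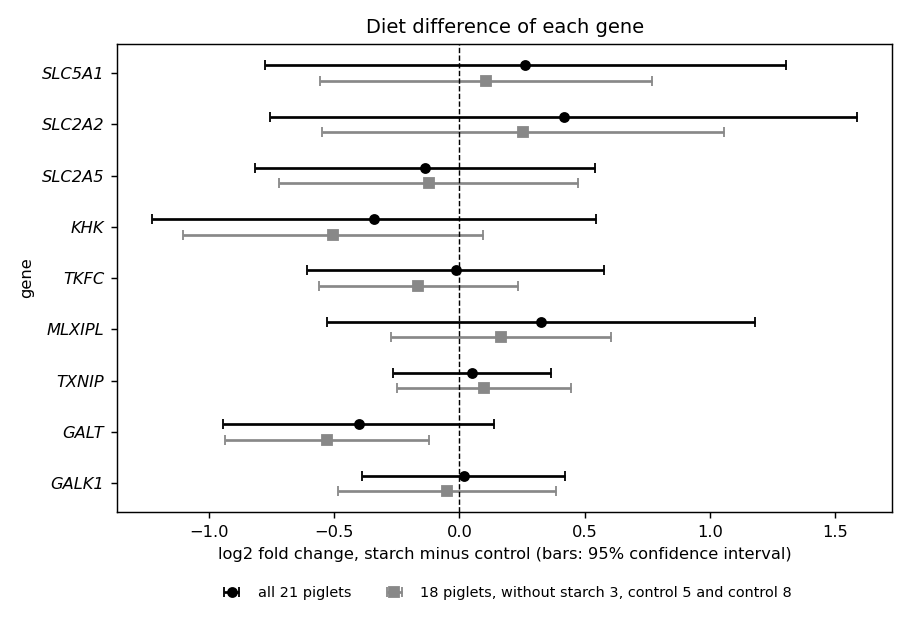
Log2 fold change, starch minus control, with its 95% confidence interval (x) for each gene (y), from the edgeR fit over all 21 piglets (black) and without starch 3, control 5 and control 8 (grey). Every interval over 21 piglets spans 0, and over 18 piglets that of GALT, -0.93 to -0.12, does not, though its adjusted p is 0.9999.

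Ratios between steps of a pathway were compared within each library, on the log2 CPM scale, and 0 of 6 passed between the diets (two-sided permutation tests, adjusted p of 0.751 to 0.967). The log2 ratio SLC2A5/SLC5A1 was -3.29 ± 1.90 in starch and -2.65 ± 1.96 in control piglets (SD, n = 11 and 10, p = 0.457). This difference of -0.64 was -1.18 without starch 3 (permutation p = 0.0934), -0.24 without control 5, -0.26 without control 8 and -0.31 without all 3 (permutation p = 0.403). TKFC/KHK was 0.90 ± 0.62 and 0.59 ± 0.61 (p = 0.25), and GALT/GALK1 -0.07 ± 0.55 and 0.21 ± 0.50 (p = 0.234). Without the 3 piglets these differences were 0.38 (permutation p = 0.127) and -0.40 (permutation p = 0.0547, adjusted p = 0.328). SLC2A2/SLC5A1 was -3.55 ± 0.83 and -3.64 ± 0.60 (p = 0.782). In starch 3, control 5 and control 8 SLC2A2/SLC5A1 was -3.86, -3.96 and -4.09, inside the range of the 18 other piglets (-4.76 to -2.16). SLC2A5/SLC5A1, by contrast, was 2.10, 0.90 and 0.75 in the 3 piglets and -4.67 to -1.70 in the 18. There the fructose carrier message was above that of the glucose carrier, the other way round from the rest. KHK/SLC2A5 was -3.07, -2.76 and -1.62 in the 3 piglets and -0.09 to 2.75 in the 18, so these piglets had low KHK beside high SLC2A5.

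Across piglets, the members divided by how they behaved in starch 3, control 5 and control 8. SLC5A1 stood at 0.0571, 0.122 and 0.0727 times the median of the other 18, and SLC2A2 at 0.0373, 0.0842 and 0.0413 times. MLXIPL stood at 0.113, 0.0698 and 0.138 times and KHK at 0.124, 0.143 and 0.171 times. TKFC (0.375, 0.211 and 0.329 times) and GALT (0.381, 0.295 and 0.564 times) were less low, and GALK1 (0.778, 0.552 and 0.805 times) lay inside the range of the 18 in each of the 3. SLC2A5 went the other way, at 3.20, 2.96 and 1.59 times the median, and no more than 2 of the 18 piglets were above the lowest of these values. These are descriptions of piglets already known to stand apart, and carry no test. The part of the smooth muscle and goblet cell markers, which were also high in the 3 piglets, was not tested.

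**Figure D4:**
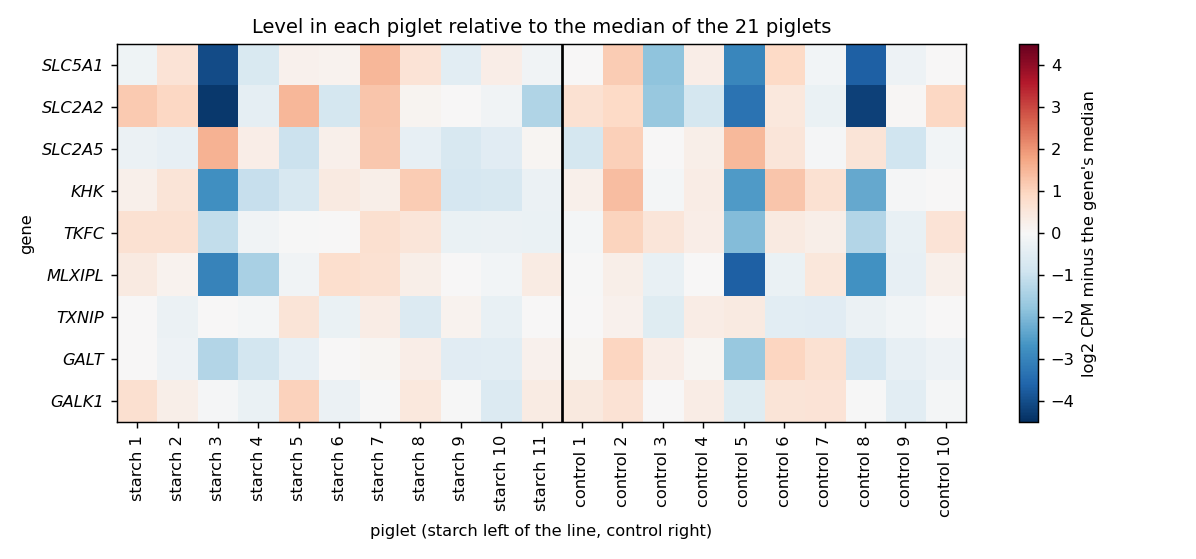
Log2 CPM of each gene (rows) in each piglet (columns, starch left of the line and control right), minus that gene's median over the 21 piglets; blue is below and red above the median. The columns of starch 3, control 5 and control 8 are blue for SLC5A1, SLC2A2, KHK and MLXIPL, red for SLC2A5 and near white for TXNIP.

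Among the 18 other piglets, pairs of genes were compared on log2 CPM, as 36 pairs plus 18 relations with an epithelial and a smooth muscle marker score, with two-sided permutation tests adjusted over the 54. Each score was the mean log2 CPM of the pan-epithelial or smooth muscle markers, each marker centred on its own mean. By Pearson's r, 1 relation passed. KHK and GALT had r = 0.85 (permutation p = 4e-05, adjusted p = 0.00216) and rho = 0.76 (p = 0.00044, adjusted p = 0.0238), n = 18. Within diets r was 0.80 in 10 starch piglets (permutation p = 0.00585) and 0.91 in 8 control piglets (exact permutation p = 0.00223), and it was 0.76 without starch 4 and control 2, the 2 piglets farthest from the median of KHK (permutation p = 0.00059, adjusted p = 0.0173). By Spearman's rho SLC5A1 and KHK also passed (rho = 0.68, p = 0.00242, adjusted p = 0.0484; r = 0.54, p = 0.0181, adjusted p = 0.141; permutation tests). Without control 3 and starch 7 that r was 0.76 (adjusted p = 0.0173) and rho 0.73 (permutation p = 0.00209). By rho 0 of the 54 relations, KHK and GALT among them, passed once the 2 farthest piglets were left out. SLC2A5 and the epithelial score passed by rho too (0.68, permutation p = 0.00269, adjusted p = 0.0484). Their r was 0.55 (permutation p = 0.0172, adjusted p = 0.141) over the 18 and 0.62 without starch 7 and control 2 (adjusted p = 0.101). By rho they did not pass on log2 FPKM or without those 2 piglets. Their rho was 0.60 within starch and 0.79 within control piglets. SLC2A5 and the smooth muscle score had rho = 0.44 over the 18 (permutation p = 0.0692, adjusted p = 0.268), 0.81 within starch and -0.14 within control piglets. The part of epithelial or muscle content in these relations was not tested. Within the 10 starch and 8 control piglets taken separately 0 of 54 relations passed.

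Several pairs that the pathways join did not pass. KHK and TKFC, consecutive enzymes of fructolysis, had r = 0.68 (permutation p = 0.00203, adjusted p = 0.0548) and rho = 0.64 (adjusted p = 0.068). SLC5A1 and SLC2A2 had r = 0.60 (permutation p = 0.00733, adjusted p = 0.132) and rho = 0.47, and r was 0.31 without control 3 and starch 7, so it rests on those piglets. SLC2A5 and KHK had r = 0.45 (permutation p = 0.0623, adjusted p = 0.277) and GALT and GALK1 r = 0.54 (permutation p = 0.021, adjusted p = 0.141). MLXIPL and TXNIP, a transcription factor and its known target in mouse and human cells, had r = 0.04 (permutation p = 0.868, adjusted p = 0.998). SLC2A2 and SLC2A5 had r = -0.05 (permutation p = 0.857, adjusted p = 0.998). All libraries share a total of counts, and the piglets share tissue make-up, so a correlation here is no more than that of levels in mixed tissue.

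**Figure D5:**
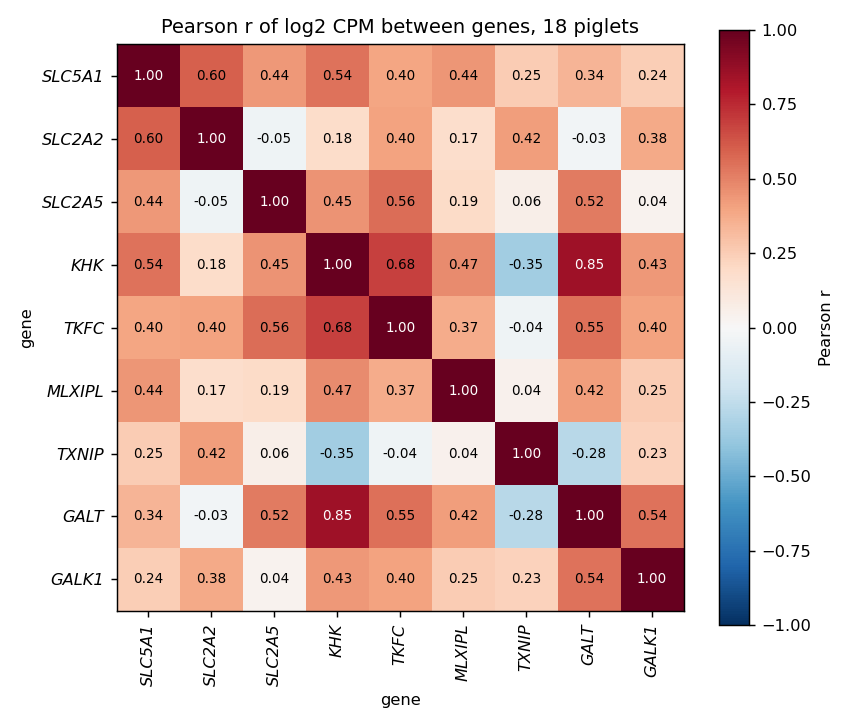
Pearson r of log2 CPM between each pair of genes (rows and columns) over the 18 piglets other than starch 3, control 5 and control 8. KHK and GALT have the highest value, 0.85, and the column of TXNIP, apart from its own cell, lies between -0.35 and 0.42.

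The genes most like each member over the 18 piglets, by Spearman's rho among 11275 other tested genes with a symbol, are given as a description, with no test. SLC5A1 was closest to NOL4 (0.89), SI, the brush-border sucrase-isomaltase (0.80), and ACAD11 (0.79). SLC2A2 was closest to CXADR (0.89), GIMD1 (0.87) and SLC1A1, a glutamate carrier (0.86), and SLC2A5 to ADGRE5 (0.87), VDAC3 (0.86) and DUSP5 (0.85). For KHK these were DNAJC22 (0.91), PC, pyruvate carboxylase (0.91), and ERBB2 (0.91), and for TKFC SLC26A6, an anion exchanger (0.82), CAMTA2 (0.81) and XYLB, xylulokinase (0.80). MLXIPL had SIRT3 (0.83), RMND1 (0.80) and PPOX (0.77). TXNIP had no close companion, the highest being PIAS1 (0.64), SPATS2L (0.64) and HELB (0.63). GALT was closest to EXD3 (0.93), HADHA, a subunit of the mitochondrial trifunctional protein (0.92), and PEX11G (0.89), and GALK1 to ARSA, arylsulfatase A (0.96), TANGO2 (0.93) and RETREG2 (0.92). ADGRE5, an adhesion receptor of leukocytes, also shared the high values of SLC2A5 in starch 3, control 5 and control 8, at 176.5 to 281.9 CPM there against group means of 101.6 CPM in starch and 110.8 CPM in control piglets.

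Other genes of the same pathways were read from 8 lists, and 0 of their members passed at an adjusted p of 0.05 (edgeR). The lists held 15, 2, 3, 10, 7, 15, 7 and 13 tested genes. At an unadjusted p under 0.05 there was 1 among them, against 1.33% of all tested genes (174 of 13127). It was ME1, malic enzyme, counted among known ChREBP targets. ME1 had 2.46 ± 0.85 CPM in starch and 4.22 ± 3.42 CPM in control piglets (log2 fold change -0.78, unadjusted p = 0.0212, edgeR). ME1 read 4.17, 12.6 and 8.21 CPM in starch 3, control 5 and control 8 and at most 3.28 CPM in the 18 piglets. Of 13 tested genes on that list 8 were higher and 5 lower on starch (median log2 fold change 0.01, as for all genes near 0). MLX, the partner of ChREBP, had 0.10, its relative MLXIP 0.27 and KLF10 -0.16.

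Of 15 other sugar carriers tested, 10 had higher and 5 lower values on starch (median log2 fold change 0.07). SLC45A4 read 8.58 ± 2.07 CPM in starch and 6.88 ± 2.01 CPM in control piglets (0.32, unadjusted p = 0.0868), and SLC2A6 had 0.54, SLC2A11 0.20 and SLC45A3 -0.21. ATP1B1, a subunit of the sodium pump, which keeps up the gradient that drives SLC5A1, had 0.14. Of the sweet taste genes, the receptor subunit TAS1R3 had 0.21, the channel TRPM5 -0.16 and RSC1A1, a regulator of SLC5A1, 0.01.

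Of 10 tested genes of fructose and triose metabolism, 3 were higher and 7 lower (median -0.10, and -0.21 without the 3 piglets or 0.06 with the smooth muscle marker score in the fit). GLYCTK, glycerate kinase, read 41.7 ± 24.9 CPM in starch and 62.4 ± 37.3 CPM in control piglets (-0.58), GPD1, glycerol-3-phosphate dehydrogenase, had -0.67, ALDOC -0.21 and TPI1 0.15.

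Of 7 tested genes of galactose metabolism, 2 were higher and 5 lower (median -0.05), with PGM3 at -0.26, UGDH at -0.17, GALM, galactose mutarotase, at 0.06 and GALK2 at -0.08. Glycolysis had 13 of 15 tested genes higher and 2 lower, but with a median of 0.06, PFKP at 0.12, HKDC1 at 0.24, PGK1 at 0.12 and HK2 at -0.55. HK2, a hexokinase, read 32.6, 62.3 and 24.9 CPM in starch 3, control 5 and control 8, against 1.37 to 15.3 CPM in the 18. Glucose production had 6 of 7 tested genes lower and a median of -0.34, which was -0.11 without control 2, -0.49 without starch 3, control 5 and control 8, and 0.03 with the smooth muscle marker score in the fit. In this list FBP1, fructose-1,6-bisphosphatase, read 130.3 ± 65.3 CPM in starch and 187.3 ± 127.0 CPM in control piglets (-0.52), G6PC1, the glucose-6-phosphatase catalytic subunit, had -0.67, PCK2 -0.35 and PC -0.25. Their unadjusted p in the edgeR test were 0.228 to 0.477, and none passed.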

How the data were processed

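RNA of 21 piglets (11 starch, 10 control, grouped by sample title) was extracted with Qiagen miRNAeasy kits and sequenced under a standard BGI protocol, per the labels' protocols. The authors deposited, per the file headers, an expected count and an FPKM value for each transcript. The authors' expected counts carry no normalisation. The authors' FPKM are scaled for transcript length and library depth. HISAT and DESeq2 are named in the submitters' processing notes without a role. Counter, strand setting and genome build: not given in the sources used here. Between 99.96 and 99.97% of the listed lengths divide by 3, so they are coding lengths. Reads that fit several overlapping or similar genes follow the authors' estimates. None of the 9 genes had counts identical to another gene.

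Expected counts were summed per gene and rounded. Symbols from the gene name table were found for 76.5% of 18661 genes. Diets were compared with the quasi-likelihood test of edgeR 4.0.16 (R 4.3.3), after TMM scaling and filterByExpr (minimum count 10, minimum total 15), diet as the only term and Benjamini-Hochberg adjustment at 0.05. Intervals are 95% confidence intervals from that fit. Log2 CPM used a prior count of 2 and log2 FPKM a pseudocount of 0.5. Permutation tests (numpy 2.4.6) used 100000 resamples, whose smallest p is 1e-05, and exact enumeration for 8 piglets. DESeq2 1.42.0 and limma 3.58.1 served as alternatives, with other scalings, filters, pseudocounts, covariates and left-out piglets. The routines were tested on simulated data.

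The genes and lists were chosen with earlier results of these data known. Named are the 9 genes, up to 4 genes with the smallest p per pathway list, the 3 most alike genes per member and up to 3 of the most abundant genes per marker list. Other names are markers listed at 0. A few genes of these lists are not reported here. Totals of 6719264 to 8610458 expected counts per piglet set the counting error, which matters chiefly for SLC2A2 at its lowest. Samples are named as piglets, and litters or batches are not given in the labels. The p-values treat the samples as independent, which the labels cannot show. The labels do not describe same-numbered piglets of the diets as pairs.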

Additional observations from a re-analysis of the deposited data

Results flagged for a closer look

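MLXIPL of control 8 was set apart from the rest of its group by its transcripts. The 2562-base transcript took 71.2% of the gene's counts in control 8, against 20.1 to 35.4% in the other 9 control piglets and 22.6 to 42.6% in the 11 starch piglets. The gap to the next control value exceeded Dixon's limit of 0.466 of the range for 10 samples. The value rests on 46.96 expected counts of that transcript, and MLXIPL was low in this piglet as a whole (8.46 CPM). Of 15 such comparisons in the control group this was the 1 that exceeded the limit, and chance alone sets apart about 1 in 20 groups.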

How the results depend on the processing

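In each of 35 alternative fits 0 genes, 0 of the 9 members and 0 pathway genes were called at an adjusted p of 0.05. Among the 35, the unblocked fit of 20 piglets described below and the fit without starch 11 are the same fit, counted under both names. The signs of SLC5A1, SLC2A2, MLXIPL and GALT were kept in all 35, with log2 fold changes of 0.03 to 0.69, 0.25 to 1.02, 0.17 to 0.67 and -0.53 to -0.25. Genes at an unadjusted p under 0.05 numbered 174, and 524 with no filter, 382 without starch 3, control 5 and control 8, 317 with smooth muscle as covariate, 293 with DESeq2, 268 with voom and 117 to 302 with 1 piglet left out (302 without starch 3, 117 without starch 9). On FPKM, 21 of 224 such genes were higher on starch, against 53 of 174 on expected counts with edgeR. Of all tested genes 38.8% were higher on starch on FPKM and 51.1% on expected counts, so the 2 scales also differed over all genes.

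Of the 9 genes SLC2A5, KHK, TKFC, TXNIP and GALK1 changed sign in at least 1 fit. With voom SLC2A5 was 0.0566, TKFC 0.0635 and GALK1 -0.00219. With FPKM and pseudocounts of 0.5, 0.1 and 1, TKFC was 0.0161, 0.0174 and 0.0145 and GALK1 -0.0515, -0.0522 and -0.0507. TKFC was 0.00864 with epithelial and 0.21 with smooth muscle scores as covariate, where KHK was 0.0259 against -0.34 without it, and GALK1 was -0.0498 without starch 3, control 5 and control 8. With 1 piglet left out the ranges were -0.38 to 0.0564 for SLC2A5, -0.54 to -0.15 for KHK, -0.13 to 0.12 for TKFC, -0.0167 to 0.11 for TXNIP and -0.0949 to 0.0782 for GALK1. They were 0.03 to 0.49 for SLC5A1, 0.25 to 0.59 for SLC2A2, 0.19 to 0.45 for MLXIPL and -0.51 to -0.28 for GALT. Leaving out 1 piglet moved several values by over 1.5 times: SLC5A1 was lowest without starch 7 (0.03) and SLC2A2 without starch 5 (0.25).

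As 1 block per replicate number (20 piglets), TKFC was 0.12 and GALK1 -0.0371, and 0 genes were called. The same 20 piglets, unblocked, a fit chosen after seeing the data, gave 0.022 and -0.000633. Same-numbered piglets deviated together in 4 of 10 pairs at a correlation over 0.1 (range -0.337 to 0.485). In 0 pairs did the number match best both ways. Pairs 3, 5 and 8, which hold the piglets that stood apart, had -0.288, -0.283 and -0.337. With those piglets in it, the check cannot decide whether the numbers pair the samples.

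Of the 54 relations, 1 passed by Pearson's r over 18 piglets, 26 over all 21, 0 within starch piglets, 0 within control piglets, 2 without the 2 farthest piglets and 1 on FPKM. By Spearman's rho these numbers were 3, 15, 0, 0, 0 and 2. Among the ratios, with 1 piglet left out, KHK/SLC2A5 ran from -0.44 to 0.36 and SLC2A2/SLC5A1 from -0.0494 to 0.21, SLC2A5/SLC5A1 from -1.18 to -0.24, and 0 passed. For transcript shares, with 1 piglet left out, the KHK difference ran from -4.499 to 7.86 points and the MLXIPL difference from -2.09 to 3.64, and the TKFC difference from 11.3 to 15.6, with 0 to 1 shares passing. Without starch 3, control 5 and control 8 the KHK and MLXIPL values were -2.65 and 2.27, against 0.905 and -0.834 in all. The causes were not tested. Depth limits SLC2A2 at its lowest.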
